A study of Mus musculus with 120 samples.

Results

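Isg15, Usp18, Isg20, Mx1, Mx2, Oasl1, Oasl2, Oas2, Oas3 and Bst2 are antiviral effector genes that type I interferon switches on, and their levels were followed through a mouse macrophage experiment with the drug halofuginone. The members were taken by symbol, and all 10 are among the 23481 gene rows of the deposited count table. The cells were bone marrow-derived macrophages from wild-type male C57BL/6 mice 12 weeks old, grown in wells and carrying a virus pool of transcription factor reporters, which every group shares. The 120 libraries fall into 45 groups. At each of the labelled times 0, 1 and 4 (here T0, T1 and T4, given without a unit) there were 12 control libraries with no halofuginone and no proline label. At each time there were also 2 libraries for each of 7 halofuginone doses (2.4, 9.7, 39, 156, 625, 2500 and 10000 nM) and 2 for each dose with 2 mM proline. The design text describes drug pretreatment for 30 min before lipopolysaccharide (LPS, a bacterial cell wall component sensed by Toll-like receptor 4), and the treatment protocol names a dose curve of 4 h with and without LPS. The labels do not tie LPS to single libraries, so groups are named here by their time label. Nothing says whether replicates came from separate mice or separate wells, so p-values measure the spread between these libraries, which may be technical.

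Type I interferon binds a receptor made of Ifnar1 and Ifnar2, and the kinases Jak1 and Tyk2 then set off signalling that ends at interferon-stimulated response elements in target promoters. Macrophages exposed to LPS make interferon beta (Ifnb1) and respond to it within hours. Isg15 is a ubiquitin-like protein joined to other proteins by the enzymes Uba7, Ube2l6 and Herc6, and Usp18 removes it and also damps the interferon receptor. Isg20 is an exonuclease that degrades RNA. Mx1 and Mx2 belong to a family of dynamin-like GTPases that block virus replication. The Mx1 gene of C57BL/6 mice carries an internal deletion and makes no working protein, and whether Mx2 works in this strain is not considered here. Oas2, Oas3 and, in the mouse, Oasl2 make 2′-5′-linked oligoadenylates that activate the nuclease RNase L. Oasl1 lacks that activity and is known to hold back translation of Irf7 mRNA. Bst2, also called tetherin, holds budding virus at the cell surface and is used as a surface marker of plasmacytoid dendritic cells. Halofuginone inhibits the prolyl-tRNA synthetase Eprs by occupying its proline and tRNA site, and added proline competes with it.

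On the GRCm38 assembly (mm10, annotation GENCODE M21) the members lie in 6 places. Isg15 is at chr4:156199424-156200818 on the minus strand, Usp18 at chr6:121245906-121270917 on the plus strand and Isg20 at chr7:78913424-78920396 on the plus strand. Mx1 (chr16:97447035-97462907, minus strand) and Mx2 (chr16:97535308-97560900, plus strand) are neighbours. On chromosome 5, Oasl2 (114896936-114912234) and Oasl1 (114923240-114937915) lie side by side on the plus strand, and Oas2 (120730333-120749853) and Oas3 (120753098-120777661) on the minus strand. Bst2 is at chr8:71534255-71537456 on the minus strand. The Mx, Oasl and Oas pairs are paralogs, and how reads that fit more than one place were treated is not given in the sources used here.

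RefSeq promoter windows (build GRCm38.p6, 250 bases before to 50 bases after the start) were found for 6 of the 10 members, Isg15, Isg20, Oasl1, Oasl2, Oas3 and Bst2. They were searched on both strands for GAAANNGAAA, the core of the interferon-stimulated response element, with overlapping matches counted. The stretches with matches are shown because they carry the motif through which interferon acts on promoters, with the matched bases in capitals, read 5′ to 3′ on the gene's strand (GRCm38.p6, minus strand in all 3). The first is at chr4:156200860-156200911, the second at chr5:120777710-120777749 and the third at chr8:71537572-71537617.
Isg15: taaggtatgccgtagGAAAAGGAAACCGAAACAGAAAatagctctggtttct
Oas3: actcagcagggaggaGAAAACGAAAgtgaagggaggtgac
Bst2: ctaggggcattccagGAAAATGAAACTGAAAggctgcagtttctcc

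The Isg15 window holds 3 overlapping matches, which begin 78, 72 and 66 bases before the start. Oas3 holds 1, 75 bases before its start, and Bst2 holds 2 overlapping ones, 130 and 124 bases before. The windows of Isg20, Oasl1 and Oasl2 do not hold these letters. Of all 32851 promoter windows of that length, 1131 (3.44%) hold at least 1 match. A match describes the letters, not binding.

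The libraries were shallow. They held 20000 to 114061 counts (median 49515), and 8 held fewer than 30000, so that 1 count was worth 8.46 to 51.4 CPM (counts scaled by library total, the usual CPM unit). Levels below are CPM scaled by trimmed-mean (TMM) factors over all 120 libraries. Fold changes and tests come from edgeR's quasi-likelihood test, scaled within each comparison's own libraries and adjusted by the Benjamini-Hochberg method over all genes that passed the filter on low counts. A gene is called higher or lower at an adjusted p under 0.05. In counts, Rn45s, the ribosomal precursor RNA, took 27.0% to 42.7% of each T4 control library and 61.5% to 67.6% of each T4 library at 625 nM or more without proline. Of 10 macrophage marker genes 9 are in the table, and Csf1r, Cd68, Cd14 and Itgam each had counts in at least 115 of the 120 libraries, whereas Lyz2 had only 18 counts in all.

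In the controls the 10 genes had few counts at T0 and higher mean levels at T4. Mx2 had no count at T0, while Bst2 had counts in all 12 T0 controls. Their summed level rose from 240.1 ± 82.5 CPM (SD, n = 12) at T0 to 424 ± 106 at T1 and 4702 ± 431 at T4. In 7 of the 10 every T4 control lay above every T0 control, and Oas2, Oas3 and Bst2 overlapped between the times. Of the 708 genes tested 24.0% lay apart in this way. Mx2, Oas2, Oas3 and Bst2 are not among those 708, so the shares are over unlike sets.

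**Figure D1:**
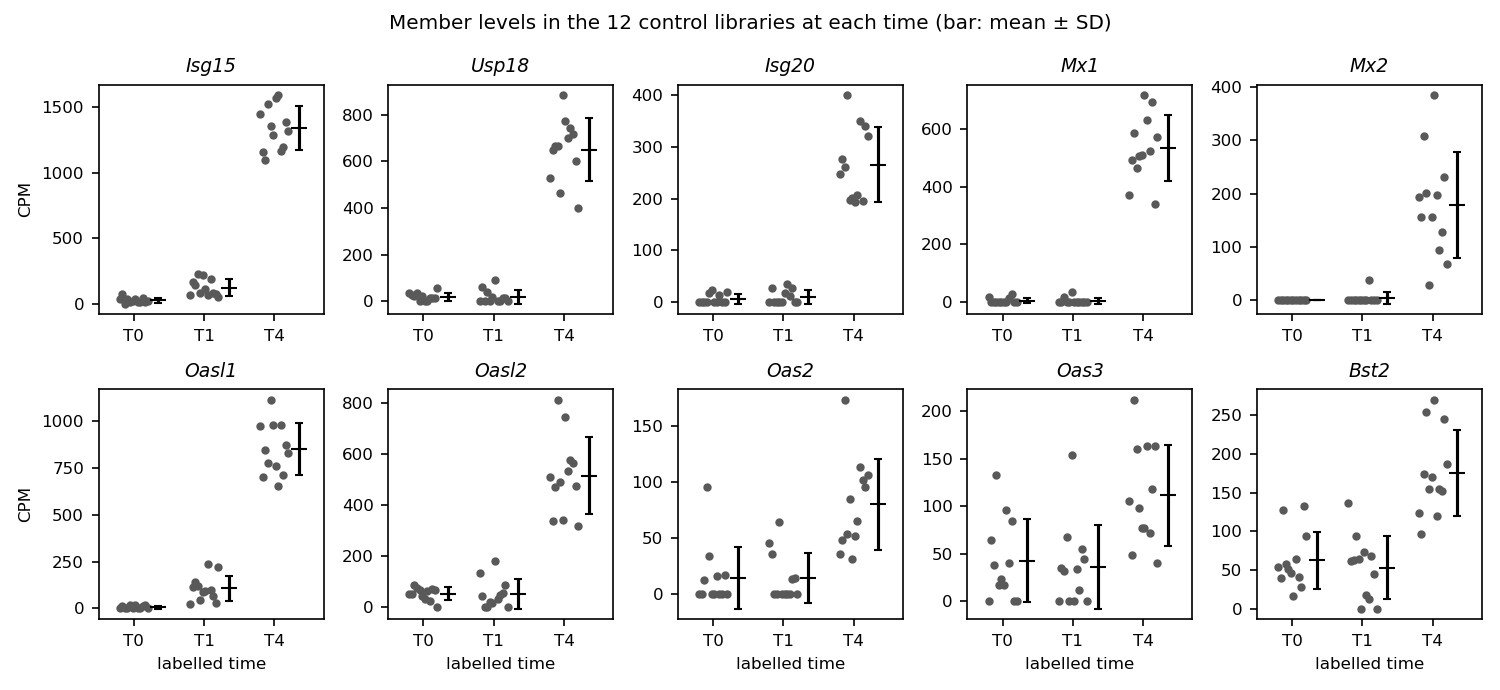
Level of each member (CPM, linear axis) in the 12 control libraries at the labelled times T0, T1 and T4; points are libraries and the bar is the mean ± SD. Isg15 and Oasl1 were already above their T0 level at T1, and the other members rose between T1 and T4, with Oas2, Oas3 and Bst2 starting from levels that overlap those at T4.

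Isg15 was detected in 11 of 12 controls at T0, with a lowest, median and highest level of 0, 20.9 and 78.0 CPM. At T1 these were 55.4, 97.8 and 229 CPM, and at T4 1099, 1337 and 1593 CPM. The T0 and T1 ranges overlap, and every T4 control lies above every earlier one. The log2 fold change was 2.07 ± 0.31 (SE) from T0 to T1 (adjusted p 7.73e-08, edgeR) and 5.32 ± 0.22 from T0 to T4 (adjusted p 2.62e-29, edgeR). Oasl1 was the other member already higher at T1. It went from 0, 0 and 17.1 CPM (lowest, median, highest) at T0 to 22.7, 95.4 and 239 at T1 and 655, 838 and 1114 at T4, with no overlap between any of the times T0, T1 and T4. Its log2 fold changes were 3.64 ± 0.44 at T1 (adjusted p 3.04e-10, edgeR) and 6.49 ± 0.31 at T4 (adjusted p 1.2e-26, edgeR).

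Isg15 and Oasl1 were 2 of the 6 members that could be tested from T0 to T1, where 18.2% of the 708 genes tested were called higher. The other four were not called. Isg20 (log2 fold change 0.82 ± 0.68), Usp18 (0.09 ± 0.53), Oasl2 (-0.20 ± 0.40) and Mx1 (-0.40 ± 0.75) had adjusted p of 0.40 to 0.91 with edgeR. Mx1 had 4 counts over the 12 controls at T0 and 3 at T1, and Isg20 had 4 and 9. The median of the 6 log2 fold changes was 0.45, beside -0.10 for all genes tested. Of all genes, 129 and 56 were called higher and lower, against 137 and 26 when scaled over all libraries.

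From T0 to T4 all 6 were called higher, where 36.4% of genes were. In the comparisons within T0, 0 members passed the filter, and within T1 3 did. The numbers called at T4 against T0 and against T1 were thus partly fixed by the filter. The genes called higher and lower numbered 258 and 283, against 288 and 200 when libraries were scaled by median of ratios, where the same 6 members were higher. Mx1 went from a highest level of 28.2 CPM at T0 to 341, 519 and 719.8 CPM (lowest, median, highest) at T4, a log2 fold change of 6.10 ± 0.34. Isg20 went from at most 23.0 CPM to 193, 254 and 400.5 CPM (5.07 ± 0.39), and Usp18 from at most 56.4 CPM to 400.2, 666 and 884 CPM (4.74 ± 0.30). Oasl2 had the highest T0 level relative to its own T4 level of these 6. It went from 0, 59.1 and 89.1 CPM to 320.2, 503 and 814 CPM, a log2 fold change of 3.03 ± 0.28. The median of the 6 was 5.20, beside -0.14 for all genes tested. From T1 to T4 the same 6 were again called higher, where 30.9% of genes were, by 2.86 ± 0.19 (Oasl1) to 6.50 ± 0.35 (Mx1) on the log2 scale. Without T1 control replicate 3 the Mx1 value was 7.34.

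Mx2, Oas2, Oas3 and Bst2 did not pass the filter over the controls. Mx2 had 0 counts in all 12 T0 controls and 28.2, 175 and 386 CPM at T4. Against the level of 3 counts over the T0 controls (4.02 CPM), its mean of 179 CPM at T4 was at least 44.4-fold higher. Such floors cover counting error only, since whether molecular identifiers were counted is not given in the sources used here. Oas2 went from 0, 0 and 95.2 CPM to 31.0, 75.0 and 173 CPM, Oas3 from 0, 30.6 and 133 to 40.02, 102 and 212 CPM, and Bst2 from 16.9, 52.6 and 133 to 96.4, 163 and 270 CPM. Without the filter on low counts all 10 were called higher at T4, where 8.09% of the 12496 genes then tested were. The log2 fold changes there were 1.58 for Bst2 (adjusted p 4.68e-06, edgeR), 1.46 for Oas3 (0.000632, edgeR) and 2.57 for Oas2 (2.85e-06, edgeR), against 3.33 to 6.76 for the other seven.

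The other genes of the interferon pathway were read from a list of 58, none of them a member, of which 33 were tested in the controls. Of these, 10 were called higher and 1 lower from T0 to T1, where 18.2% and 7.91% of all genes tested were. From T0 to T4, 32 were called higher and 0 lower, where 36.4% and 40% of all genes tested were. In the comparisons at T0, 8 of the 58 passed the filter, so the T4 number was likewise partly fixed by it. The T4 rises with the smallest p were those of Rsad2 (viperin, log2 fold change 7.26 ± 0.14), Cxcl10 (a T cell chemokine, 8.34 ± 0.20), Ifit1 (which binds foreign capped RNA, 6.73 ± 0.18) and Ccl5 (a chemokine, 7.11 ± 0.20). Ifnb1 itself, the ligand, had 0 counts in the T0 controls, 21 over the 12 T1 controls and 2 over the 12 T4 controls. Irf7, which amplifies interferon production, was 0.90 ± 0.33 lower on the log2 scale at T1 and 2.50 ± 0.23 higher at T4. Of the Isg15 conjugation enzymes, none passed the filter over the controls. Herc6 had 21 counts at T0 and 212 at T4, Ube2l6 16 and 74, and Uba7 14 and 64.

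Over the 45 groups the mean profile of the members (standardised log2 CPM) was most like that of Ifit3 (Pearson r = 0.972), Cxcl9 (0.969), Cmpk2 (0.969), Cd69 (0.968), Gbp2 (0.961) and Pydc3 (0.960), out of 1832 genes that passed the filter over all libraries. These are correlations over 45 group means, whose points share 3 times and 12 controls each, and carry no test. Among the members, Mx1 and Isg20 were most alike (r = 0.970), followed by Usp18 with Mx1 (0.963) and Usp18 with Mx2 (0.962), and Isg15 was nearest to Oasl1 (0.924). Oasl2 was nearest to Mx1 (0.915), as was Oas2 (0.805), which did not pass the filter over all libraries. Oas3 was nearest to Oasl2 (0.643) and Bst2 to Oasl1 (0.571). Bst2 (0.601) and Oas3 (0.695) followed the mean profile least.

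At T0 no member passed the filter in the comparison of high-dose halofuginone (625, 2500 and 10000 nM together, 6 libraries) with control, and none was tested there. Bst2, the member with most T0 control counts, had 47 counts over 12 controls, 4 over the 6 high-dose libraries and 4 over the 6 with proline. Its median level was 52.6 CPM in the controls, 12.2 with halofuginone and 0 with halofuginone and proline. Without the filter on low counts Bst2 was called lower with halofuginone and proline (adjusted p 0.037, edgeR) and not without proline (adjusted p 0.17, edgeR).

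At T1, 3 members were tested, and none was called at high doses without proline, where 23.3% of 1066 genes were called lower. Isg15 was 55.4, 97.8 and 229 CPM (lowest, median, highest) in the controls and 0, 55.8 and 122 CPM with the drug. The groups overlapped, although 3 of 6 treated libraries lay below the lowest control (log2 fold change -0.88 ± 0.57, adjusted p 0.23, edgeR). Oasl2 (0.74 ± 0.95) and Oasl1 (-0.01 ± 0.51) were not called either. With proline, where 23.5% of genes were called lower, Oasl1 was 22.7, 95.4 and 239 CPM in the controls and 0, 0 and 106 CPM in the 6 treated libraries, 4 of which had no count. Its log2 fold change was -2.30 ± 0.88 (adjusted p 0.031, edgeR). That call was lost without the 10000 nM dose (-0.76, adjusted p 0.43, edgeR) and when any one of 4 libraries was left out. These were both 10000 nM libraries (adjusted p 0.068 and 0.069, edgeR), 2500 nM replicate 2 (0.059, edgeR) and control replicate 5 (0.050, edgeR). It was also lost with the replicate number as a block (-0.66, adjusted p 0.67, edgeR). Without 2500 nM replicate 1 the Oasl1 log2 fold change was -3.96. The difference between the arms was -2.28 ± 1.03 (adjusted p 0.40, edgeR). None of the 3 was called at middle doses (39 and 156 nM), where 16.1% of genes were called lower without and 5.91% with proline, or at low doses (2.4 and 9.7 nM), where the shares were 1.69% and 0%. In each of these T1 comparisons with control that called 0 members, 0 had an unadjusted p under 0.05 with edgeR and 0 were called by DESeq2. In the difference between the arms at high doses 1 member, Oasl1, had an unadjusted p under 0.05, and DESeq2 called 0. Genes called higher and lower numbered 120 and 248 at high doses without proline (71 and 349 when scaled over all libraries), 163 and 251 with proline (101 and 319), 138 and 172 at middle doses (93 and 221) and 73 and 63 at middle doses with proline (65 and 85).

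At T4, where the members were high, high-dose halofuginone lowered Oasl1 and Bst2 and left the other 7 members tested without a call, while 35.5% of the 1315 genes tested were called lower and 19.1% higher. A total of 9 members passed the filter, and Oas2 did not. Their median log2 fold change was -0.07, beside -0.23 for all genes tested. The scale matters here. The levels, scaled over all 120 libraries, put high-dose libraries lower than the fold changes do, and with that scaling in the test the median over all genes moved to -0.61, and to -0.41 with median-of-ratios scaling. With scaling over all libraries 557 genes were called lower and 120 higher, and with median-of-ratios scaling 497 and 183, against 467 and 251. In bulk libraries fewer cells of a type and less RNA per cell cannot be told apart.

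**Figure D2:**
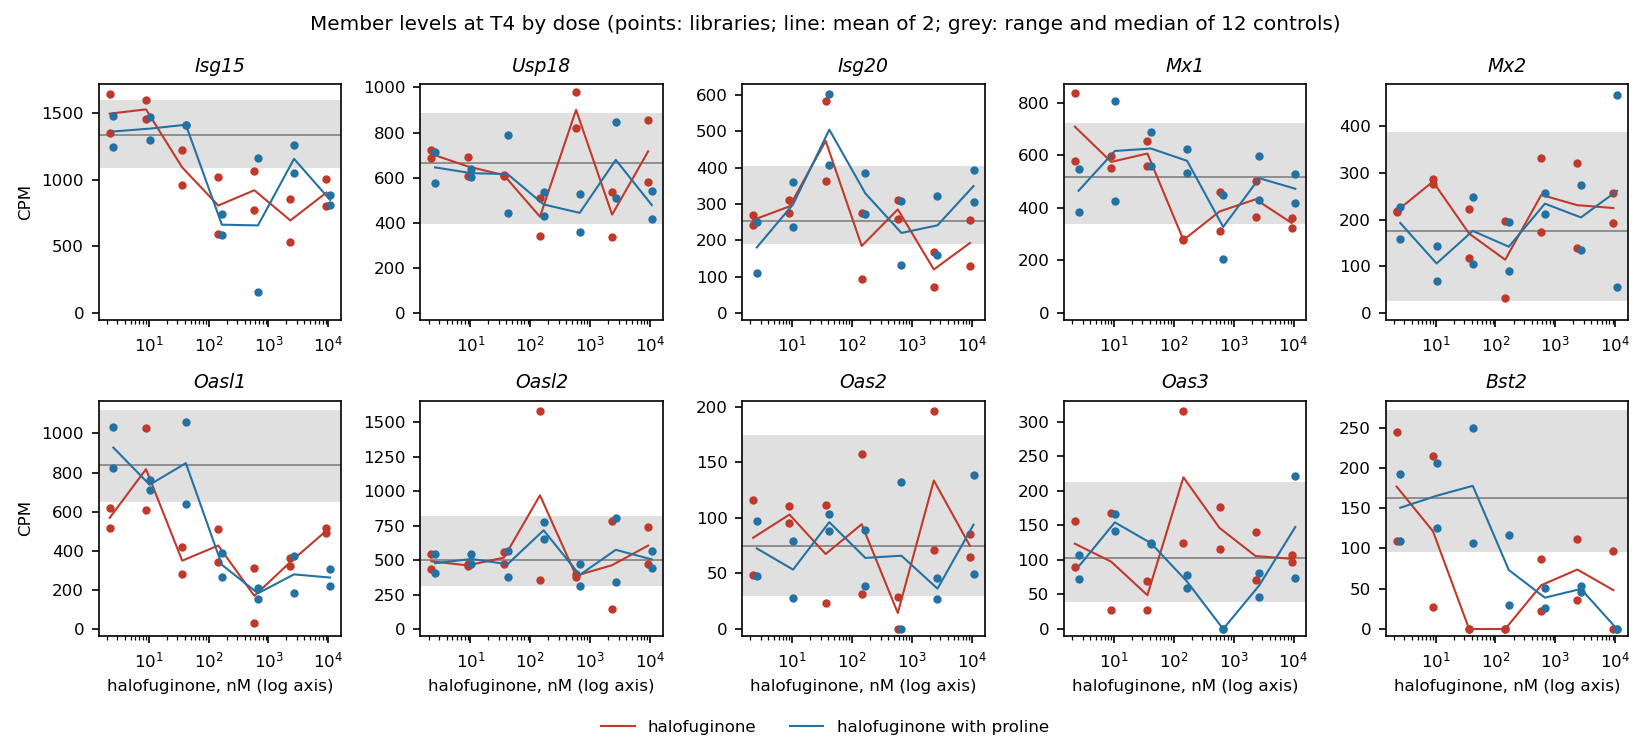
Level of each member at T4 (CPM, linear axis) against halofuginone dose (nM, log axis) without proline (red) and with 2 mM proline (blue); points are libraries, lines join the means of 2, and the grey band and line are the range and median of the 12 controls. Oasl1 lay below every control at 39 nM and above without proline and at 156 nM and above with it, Bst2 was at 0 at 39 and 156 nM without proline only, and most other members stayed within or near the control range.

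Oasl1 was 655, 838 and 1114 CPM (lowest, median, highest) in the 12 T4 controls. Without proline it was 519 and 618 CPM at 2.4 nM, 607 and 1028 at 9.7 nM, 281 and 418 at 39 nM, 342 and 512 at 156 nM, 28.8 and 310.4 at 625 nM, 322 and 364 at 2500 nM, and 491 and 515 at 10000 nM. All 10 libraries from 39 nM upwards lay below the lowest control, as did 3 of the 4 at 2.4 and 9.7 nM. The fall at high doses was 1.02 ± 0.24 on the log2 scale (log2 fold change -1.02, adjusted p 0.000226, edgeR). It was called under each of 8 alternative settings and in each of 18 fits that left out 1 library. Without 625 nM replicate 2 the log2 fold change was -1.99. With proline Oasl1 was 825 and 1031 CPM at 2.4 nM, 712 and 763 at 9.7 nM, 637 and 1059 at 39 nM, 267 and 389 at 156 nM, 154 and 211 at 625 nM, 183 and 376 at 2500 nM, and 221 and 305 at 10000 nM. Here 1 of the 2 libraries at 39 nM lay within the control range and the other just below the lowest control. Those from 156 nM upwards all lay below the lowest control. The high-dose log2 fold change with proline was -1.40 ± 0.25 (adjusted p 4.13e-06, edgeR), and that between the arms was -0.38 ± 0.33 (adjusted p 0.70, edgeR).

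Bst2 was 96.4, 163 and 270 CPM in the T4 controls, from 171 counts. At high doses without proline it was 22.2 and 86.5 CPM at 625 nM, 35.8 and 112 at 2500 nM, and 0 and 96.6 at 10000 nM, from 12 counts, and 4 of 6 libraries lay below the lowest control. The log2 fold change was -1.27 ± 0.49 (adjusted p 0.024, edgeR). This call was lost without the 10000 nM dose (-1.02, adjusted p 0.11, edgeR), with the replicate block (-1.02, adjusted p 0.32, edgeR), and when 10000 nM replicate 1 (-0.93, adjusted p 0.13, edgeR), 2500 nM replicate 2 (-1.17, adjusted p 0.058, edgeR) or 625 nM replicate 2 (-1.12, adjusted p 0.075, edgeR) was left out. Without 10000 nM replicate 2 the log2 fold change was -2.87. With proline it was 26.4 and 51.4 CPM at 625 nM, 45.8 and 53.7 at 2500 nM, and 0 in both libraries at 10000 nM, from 6 counts in all, and all 6 lay below the lowest control. That log2 fold change was -3.15 ± 0.75 (adjusted p 0.000354, edgeR; -1.60 and 0.030 without the 10000 nM dose), where 33.4% of genes were called lower and 18.6% higher (245 and 439 higher and lower, or 107 and 536 when scaled over all libraries). All 6 libraries lay below all controls for Oasl1 and Isg15 without proline (19.4% of genes tested did) and for Oasl1 and Bst2 with it (19.2%).

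Some marker sums of other cell types were also lower at high doses at T4, on the scale over all libraries, which puts high-dose libraries lower. The conventional dendritic cell sum was at most 54.5 CPM in the T4 controls and 0 in both arms. The T and NK cell sum was not lower (at most 10.3 CPM in controls, 21.4 at high doses and 52.8 with proline). The fibroblast sum was at most 28.2, 0 and 83.2 CPM, and the B cell and erythroid sums were 0 throughout. Of 6 plasmacytoid dendritic cell markers, Siglech had 13 counts in the whole series, Ccr9 10, Cox6a2 4, Klk1 2 and Ly6d 1, while Tcf4, with counts in 116 of 120 libraries, had 1247. Their sum was 174 to 463 CPM in the T4 controls and 0 to 155 CPM at high doses without proline. The neutrophil markers were lower as well (106 to 419 CPM and 0 to 83.9 CPM), as was the sum of the macrophage markers (1470 to 2288 CPM and 608 to 1153 CPM). With proline the sums were 55.4 to 206 CPM (plasmacytoid), 51.4 to 137 CPM (neutrophil) and 514 to 1469 CPM (macrophage). There the plasmacytoid and neutrophil sums overlapped those of the controls. Most counts of the plasmacytoid sum were those of Tcf4. The part of these cell types in the Bst2 result was not tested. Without the counts of Rn45s and 5 other structural RNAs, Bst2 (-1.51, adjusted p 0.00701, edgeR) and Oasl1 (-1.28, adjusted p 4.03e-06, edgeR) were still called lower.

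Isg15 was 1099, 1337 and 1593 CPM in the T4 controls. At high doses without proline it was 776 and 1067 CPM at 625 nM, 531 and 858 at 2500 nM, and 805 and 1004 at 10000 nM. All 6 lay below the lowest control on the scale over all libraries, but the test did not call it (log2 fold change -0.30 ± 0.18, adjusted p 0.17, edgeR). It was called lower under 6 of 8 alternative settings (log2 fold changes -0.73 to -0.38), among them scaling over all libraries (-0.69, adjusted p 0.00126, edgeR), median-of-ratios scaling (-0.47, adjusted p 0.027, edgeR) and leaving out structural RNA counts (-0.55, adjusted p 0.011, edgeR), and also when 625 nM replicate 1 was left out (-0.50, adjusted p 0.046, edgeR). With proline it was 154 and 1161 CPM at 625 nM, 1054 and 1261 at 2500 nM, and 812 and 887 at 10000 nM. The library at 154 CPM, replicate 2, held 3 Isg15 counts. The log2 fold change was -0.16 ± 0.18 (adjusted p 0.47, edgeR), and -0.998 (adjusted p 0.00203, edgeR) without the other 625 nM library, replicate 1. With scaling over all libraries Isg15 was called lower with proline too (-0.57, adjusted p 0.00712, edgeR).

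Usp18 was 400.2, 666 and 884 CPM in the T4 controls, 335, 700 and 981 at high doses and 360.0, 519 and 848 with proline, so that the groups covered the same range. Its log2 fold changes were 0.40 ± 0.20 and 0.12 ± 0.21 (adjusted p 0.081 and 0.64, edgeR), the first of which was called without control replicate 3 (0.46, adjusted p 0.046, edgeR). Isg20 was 193, 254 and 400.5 CPM in the controls, 71.5, 212 and 310.4 at high doses and 132, 307 and 394 with proline (-0.07 ± 0.30 and 0.36 ± 0.29). Mx1 was 341, 519 and 719.8 CPM in the controls, 310.4, 363 and 501 at high doses and 206, 439 and 596 with proline (-0.10 ± 0.22 and 0.12 ± 0.22). For Isg20 and Mx1 the values of the 3 groups overlapped.

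Mx2 was 28.2, 175 and 386 CPM in the controls, a wide range, and 140, 225 and 332 at high doses. With proline it was 55.4, 234 and 467 CPM. Its log2 fold change was 0.79 ± 0.36 in both arms (adjusted p 0.053 and 0.058, edgeR), short of a call. Without 1 library Mx2 was called higher in 3 fits without proline (without control replicate 4, 8 or 11, adjusted p 0.021 to 0.046, edgeR) and in 3 with it (without control replicate 4 or 11 or 10000 nM replicate 2, adjusted p 0.023 to 0.034, edgeR). Oasl2 was 320.2, 503 and 814 CPM in the controls, 143, 434 and 783 at high doses and 309, 459 and 805 with proline (0.29 ± 0.25 and 0.34 ± 0.25). Oas3 was 40.02, 102 and 212 CPM in the controls, 71.5, 111 and 177 at high doses and 0, 59.8 and 222 with proline (0.46 ± 0.42 and -1.78 ± 0.89), and both libraries at 625 nM with proline had no count. Without 10000 nM with proline replicate 2, Oas3 was called lower in that arm (-2.18, adjusted p 0.038, edgeR). Oas2, not tested, was 31.0, 75.0 and 173 CPM, then 0, 68.0 and 196, and with proline 0, 47.5 and 139. The direction of some uncalled members depended on the settings. Usp18, Isg20, Mx1 and Oasl2 changed sign between the alternative settings in both arms and were called under none of those 8. By scaling alone each of them changed sign with proline. Without proline only Oasl2 did (0.29 in the test as run, -0.10 when scaled over all libraries).

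**Figure D3:**
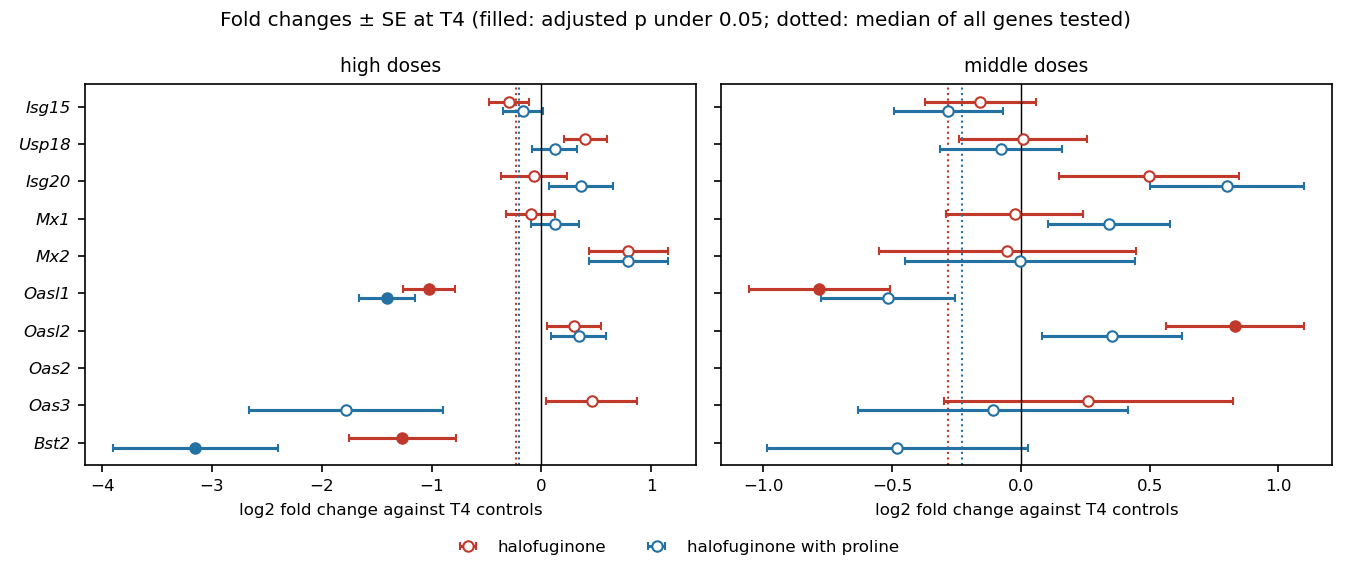
Log2 fold change against the T4 controls (± SE) at high doses (left) and middle doses (right), without proline (red) and with it (blue); filled points have an adjusted p under 0.05, and dotted lines are the median of all genes tested. Bst2 at middle doses without proline, where it had no count, and Oas2, which was not tested, are left out. At high doses Oasl1 and Bst2 are the filled points in both arms, Oas3 with proline lies at -1.78 without a call, and Mx2 lies at 0.79 in both arms.

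Proline made no called difference to a member at high doses. None of the 9 was called by edgeR or DESeq2 (1, Oas3, had an unadjusted p under 0.05), 0% of genes tested were lower with proline than without, and the members' differences ran from -2.24 ± 0.91 (Oas3) to 0.43 ± 0.37 (Isg20). The summed level of the members was 3421 ± 340 CPM (SD, n = 6) at high doses, 72.8% of the control mean, and 3260 ± 758 with proline, 69.3%.

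At middle doses (39 and 156 nM, 4 libraries) the arms differed for Bst2. Without proline it had 0 counts in all 4 libraries at T4, against 171 counts in the controls. The control mean of 175 CPM was at least 7.95-fold higher than 3 counts over those libraries (22.0 CPM). With proline it was 106 and 249 CPM at 39 nM (6 and 12 counts) and 29.7 and 117 CPM at 156 nM (1 and 3 counts). In the 3 libraries above 100 CPM it was within the control range, and the fourth, 156 nM replicate 2, lay below it. Bst2 was called lower without proline (adjusted p 7.1e-05, edgeR) and not with it (-0.48 ± 0.51, adjusted p 0.55, edgeR). The difference between the arms was called (adjusted p 0.022, edgeR), where 2.59% of genes were higher with proline. At 39 nM alone, 2 libraries against 2, it was called as well (adjusted p 0.014, edgeR), where 7.38% of genes were higher with proline. The same comparison at 156 nM alone was not called (adjusted p 0.53, edgeR), and 0 of 7 alternative settings called it. Genes higher and lower with proline numbered 34 and 15 at middle doses (62 and 8 when scaled over all libraries) and 97 and 58 at 39 nM (141 and 36). With 2 libraries a side and few counts these differences rest on few reads. The first was lost in 6 of 8 cases when a library was left out (adjusted p 0.057 to 0.21, edgeR), those without 39 nM with proline replicate 1 and without 156 nM with proline replicate 2 being the ones that kept it. The second was lost in 3 of 4, without 39 nM replicate 1 (0.13, edgeR), replicate 2 (0.12, edgeR) or 39 nM with proline replicate 2 (0.13, edgeR). Rn45s took 64.3% and 63.7% of the 39 nM libraries and 43.5% and 37.1% of those with proline. Without the structural RNA counts the difference was called (adjusted p 0.00861 at 39 nM and 0.0161 at middle doses, edgeR). Without the filter on low counts it was lost at both (0.0845 at 39 nM and 0.117 at middle doses, edgeR), and without libraries under 30000 counts it was lost at middle doses (0.255, edgeR).

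Oasl1, and in the test as run its chromosome 5 neighbour Oasl2, were called at middle doses without proline. Where 25.9% of genes were called lower and 14.7% higher, Oasl1 was 0.78 ± 0.27 lower on the log2 scale (adjusted p 0.018, edgeR). It lost that call without 156 nM replicate 2 (-0.73, adjusted p 0.093, edgeR) or 39 nM replicate 1 (-0.77, adjusted p 0.067, edgeR). Oasl2 was 474 and 561 CPM at 39 nM and 354 and 1584 CPM at 156 nM, against 320.2, 503 and 814 CPM in the controls. Only 156 nM replicate 2 lay outside the control range. The log2 fold change was 0.83 ± 0.27 (adjusted p 0.010, edgeR), and 0.01 (adjusted p 0.99, edgeR) without that library. It was 0.65 (adjusted p 0.13, edgeR) without 39 nM replicate 1. The Oasl2 call was lost in 6 of 7 alternative settings (log2 fold changes from 0.43 to 0.82, adjusted p 0.060 to 0.58 with edgeR or DESeq2), and was kept without libraries under 30000 counts (1.06, adjusted p 0.00199, edgeR). Isg15 was not called without proline (log2 fold change -0.16, adjusted p 0.58, edgeR), although 3 of 4 libraries lay below the lowest control. Scaling over all libraries called it lower (-0.52, adjusted p 0.044, edgeR). Isg20 (0.50), Oas3 (0.26), Usp18 (0.01), Mx1 (-0.02) and Mx2 (-0.05) were not called either (adjusted p 0.25 to 0.99, edgeR). With proline none of the 9 members was called by edgeR or DESeq2, where 11.3% of genes were lower. The one with an unadjusted p under 0.05 was Isg20 (0.80 ± 0.30, adjusted p 0.051, edgeR), with 407 and 602 CPM at 39 nM and 273 and 386 CPM at 156 nM beside 193, 254 and 400.5 CPM in the controls. Genes called higher and lower at middle doses numbered 193 and 341 without proline (106 and 467 when scaled over all libraries) and 72 and 149 with it (45 and 215). At 39 nM Oasl1 was 1.01 ± 0.44 higher on the log2 scale with proline than without, which was not called (adjusted p 0.13, edgeR), and which was called with median-of-ratios scaling (1.30, adjusted p 0.042, edgeR) and with scaling over all libraries (1.28, adjusted p 0.038, edgeR).

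At low doses (2.4 and 9.7 nM) none of the 9 members tested at T4 was called, with or without proline, where 2.13% and 0% of genes were called lower. With edgeR 0 of the 9 had an unadjusted p under 0.05, and DESeq2 called 0. Isg15 was 1353, 1642, 1458 and 1600 CPM in the 4 libraries without proline and 1247, 1480, 1471 and 1298 with it, and 2 of the former lay above the highest control of 1593 CPM. The members' log2 fold changes ran from -0.26 (Oasl1) to 0.51 (Mx2) without proline and from -0.34 (Mx2) to 0.05 (Oas3) with it. For Oasl1, 3 of the 4 libraries without proline lay below the lowest control, and 0 of the 4 with it. By dose, the summed level without proline was 4826, 4929, 3938, 3520, 3518, 3032 and 3714 CPM from 2.4 to 10000 nM, against 4702 in the controls. With proline it was 4564, 4645, 5051, 3444, 2562, 3798 and 3420 CPM. These sums were not tested. They are on the scale over all libraries, where the controls ran from 3964 to 5540 CPM.

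Along the whole dose ladder at T4, the slope per 10-fold dose was called for 2 of 7 members tested with proline, where 29.3% of 508 genes sloped down and 25.4% up. Oasl1 fell by 0.38 ± 0.11 on the log2 scale per 10-fold dose (slope -0.38, adjusted p 0.00613, edgeR). Mx2 rose by 0.41 ± 0.16 (adjusted p 0.037, edgeR), but that call was kept in 2 of 7 alternative settings (slopes from 0.13 to 0.40 over the 7, adjusted p up to 0.67, edgeR or DESeq2), and 6 of 12 fits that left out 1 library lost it. These were the fits without 10000 nM replicate 1 (0.27, adjusted p 0.23, edgeR), 2500 nM replicate 2, 39 nM replicate 2, either 9.7 nM library or 2.4 nM replicate 2. Without proline none of 7 was called, where 21.9% of 329 genes sloped down. Isg15 had the one unadjusted p under 0.05 (-0.22 ± 0.10, adjusted p 0.074, edgeR), and DESeq2 called none. When scaled over all libraries the slopes called up and down numbered 22 and 82 without proline (from 45 and 72) and 53 and 207 with it (from 129 and 149). The change from T0 to T4 under high-dose halofuginone was also set against that in the controls. None of the 8 members tested was called, where 15.8% of 1508 genes were called lower without and 14.2% with proline. Genes called higher and lower in it numbered 15 and 239 without proline (49 and 137 when scaled by median of ratios) and 6 and 214 with it (30 and 111). One member, Usp18 with proline, had an unadjusted p under 0.05, and DESeq2 called none. These members had 0 to 17 counts over the 6 treated T0 libraries of an arm, so the size of these differences is not given.

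The other interferon pathway genes moved in both directions at T4. Of the 58 listed genes 49 were tested at high doses without proline. Of these, 13 were called higher and 23 lower, where 19.1% and 35.5% of all genes tested were. Their median log2 fold change was -0.49, beside -0.23 for all genes and -0.07 for the 9 members. With scaling over all libraries 7 were called higher and 26 lower, and with the replicate block 8 and 12. The smallest p values were those of Ifit1 (-2.85 ± 0.18), Rsad2 (-2.05 ± 0.14), Ccl5 (-2.61 ± 0.21) and Ifit2 (1.14 ± 0.13), the last of them higher. Oas1a, an oligoadenylate synthetase of the same family as Oas2 and Oas3, was lower (-1.92 ± 0.40), as was Irf7 (-2.17 ± 0.35), whose translation Oasl1 holds back. Ifnb1 had 2 counts over the 12 controls and 10 over the 6 high-dose libraries.

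Of the enzymes that attach Isg15, Herc6 (-0.21 ± 0.35) and Ube2l6 (-1.08 ± 0.73) were not called, and Uba7, not tested, had 64 counts over the 12 controls and 4 over the 6 high-dose libraries. With proline 11 of the 49 were called higher and 21 lower, where 18.6% and 33.4% of all genes tested were. At 39 nM, 8 of 49 were higher and 3 lower with proline than without, where 7.38% and 4.41% of all genes tested were. Ifit1 (2.34 ± 0.31), Rsad2 (1.86 ± 0.26) and Ccl5 (2.06 ± 0.35) were higher and Ifit2 (-1.24 ± 0.28) was lower. Both arms share their T4 controls in the comparisons with control, so those values are not independent.

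**Figure D4:**
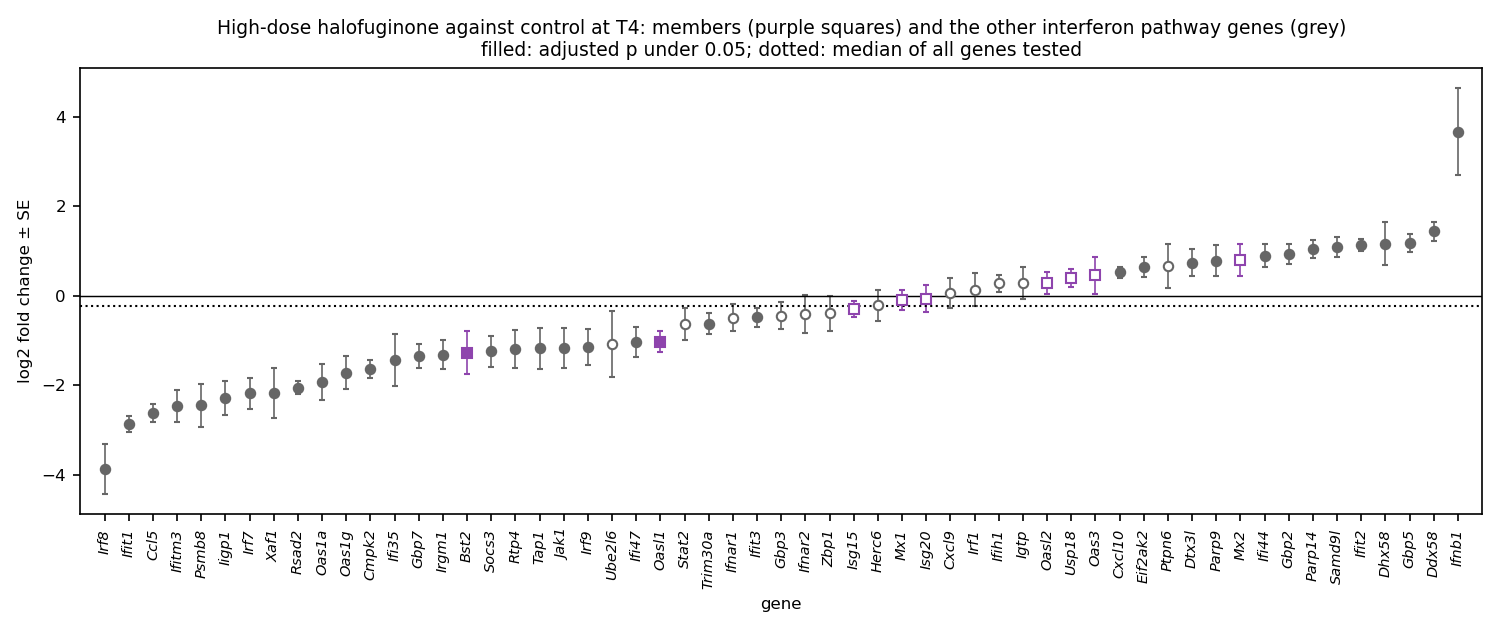
Log2 fold change at high-dose halofuginone without proline against the T4 controls (± SE), in order, for the 9 members tested (purple squares) and 48 of the 49 other interferon pathway genes tested (grey circles); filled symbols have an adjusted p under 0.05, and the dotted line is the median of all genes tested. Most members sit in the middle of the pathway genes, between Irf8 and Ifit1 at the low end and Ddx58 and Ifnb1 at the high end, and Bst2 and Oasl1 are the 2 filled squares.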

How the data were processed

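The deposited table holds raw counts per gene symbol from 3′-end digital gene expression libraries, per the labels' protocols, in one table for all 120 libraries. The authors aligned with BWA to mm10, per the submitters' processing notes; the sources used here name no version, counter or strand setting. Each column carried its library's title. No pair of libraries was identical.

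From the counts, edgeR 4.0.16 (R 4.3.3; quasi-likelihood test, TMM scaling, filterByExpr with a minimum count of 10) was run on the controls, on each time and on the dose ladders, and tested on simulated data. DESeq2 1.42.0, other scalings, no filter, a replicate block, fits without libraries under 30000 counts, without structural RNAs, without 10000 nM and without each library were alternatives; scaling over all 120 libraries was chosen after seeing the data. All 10 members are covered wherever tested, by their own values or by the number called. Pathway genes are named by smallest adjusted p or a set list. Log2 levels for correlations used a prior count of 3. Members, lists and tests were chosen with earlier results of these data known. Pairs of CPM values within a dose are in no fixed replicate order unless a replicate is named. One pathway gene is counted in its list but not reported here.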

Additional observations from a re-analysis of the deposited data

Results flagged for a closer look

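A direct test called a difference in Bst2 between the arms at T4, from few counts. At middle doses it was higher with proline than without by a fitted log2 difference of 5.75 (adjusted p 0.022, edgeR), and at 39 nM by 6.20 (adjusted p 0.014, edgeR). Both fitted sizes depend on the prior count, because Bst2 had no count in any of the 4 libraries without proline, and they are no bounds. The counts with proline were 6 and 12 at 39 nM and 1 and 3 at 156 nM. A difference at 156 nM alone was not called (adjusted p 0.53, edgeR). The call was kept in 2 of 8 fits that left out 1 library at middle doses and in 1 of 4 at 39 nM. It was kept in 5 of 7 alternative settings at middle doses and 6 of 7 at 39 nM (adjusted p up to 0.255 and 0.0845, edgeR).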

How the results depend on the processing

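With 1 count worth 8.46 to 51.4 CPM, differences in Oas2, Oas3, Mx2 and Bst2 smaller than a few counts a library were not detectable. No count of members called changed for the rise from T0 to T1 in the controls. Without the filter on low counts, 10 members instead of 6 were higher in the controls at T4 against T0 and against T1, 1 instead of 0 was called at T0 with high-dose halofuginone and proline, and 0 instead of 1 differed between the arms at middle doses at T4 and over the single doses. Scaling over all 120 libraries called 4 instead of 2 members at high doses with proline at T4, 1 instead of 0 at middle doses with proline, 1 instead of 0 for the slope without proline and 1 instead of 2 for the slope with it. With proline that slope also gave 1 with median-of-ratios scaling, with DESeq2, without structural RNAs and without 10000 nM. Over the single doses, median-of-ratios scaling, DESeq2 and scaling over all libraries gave 2 calls instead of 1. Without libraries under 30000 counts, 0 instead of 1 member differed between the arms at middle doses. Without 10000 nM, high-dose calls fell from 2 to 1 at T4 and, with proline, from 1 to 0 at T1. The cause was not tested.

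With the replicate number as a block, high-dose calls fell from 2 to 1 at T4 without proline and from 1 to 0 at T1 with proline, and no other count of calls moved past 1.5 times. The numbers do not pair the libraries: deviations of same-numbered libraries correlated at 0.0121 at T0, -0.00522 at T1 and -0.00571 at T4 on average over 182 pairs each.

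Leaving out 1 library at a time gave 0 to 2 calls at T1 high doses with proline, 1 to 3 at T4 high doses without proline, 2 to 4 with it, 1 to 3 at middle doses without proline and 0 to 1 with it, 0 to 1 for the arms at middle doses and over the single doses, and 1 to 3 for the slope with proline. A lone library left at a dose was taken to vary like the other groups. Left-out controls made uncalled members pass: Mx2 (adjusted p down to 0.021 and 0.024, edgeR), Usp18 (0.046, edgeR), Isg20 at middle doses with proline (0.037, edgeR) and Oasl2 at T1 (0.034, edgeR). Oas3 was called lower with proline at high doses without 10000 nM (-3.10, adjusted p 0.027, edgeR).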
